A study of Mus musculus with 17 samples.

Results

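The mast cell proteases Tpsab1, Tpsb2, Cma1 and Cpa3 and the receptor gene Kit were examined in cultures of peritoneal macrophages. The 5 genes were taken by symbol from a table of 21683 rows, and all 5 reached 1 TPM (transcript abundance scaled for length and library total) in at least 5 of the 17 libraries. They were chosen by their TPM over the 3 groups, with those values known, so their levels are given as a description, without a test. Tests were made only of other genes, and of how the 5 vary together within a group.

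RNA was sequenced from peritoneal macrophages that thioglycollate had elicited in 8-week-old C57BL/6 mice. The groups were IKKβF/FLDLR-/- cells given PBS (F/F PBS, n = 6 libraries), IKKβF/FLDLR-/- cells given 100 nM of the HIV protein Tat (F/F Tat, n = 6) and IKKβΔMyeLDLR-/- cells given 100 nM Tat (ΔMye Tat, n = 5). All mice carried the floxed IKKβ alleles and lacked the LDL receptor. ΔMye mice also had 1 copy of LysM-Cre, which deletes floxed alleles in cells that express lysozyme M. Cells were collected 3 days after thioglycollate by the sample labels and a day later by the methods, attached for 4 h and treated for 12 h. All mice were male, and the Tat was a recombinant protein made in bacteria with endotoxin removed. The labels do not say whether the libraries of a group came from separate mice. The paper's heatmap legends call the columns biological replicates of mice. IKKβΔMye cells given PBS were not analysed here, so any gap between the genotypes under Tat may include one present before Tat. Ikbkb, the targeted gene, ranged from 24.5 to 30.1 TPM in F/F PBS, from 21.6 to 25.4 TPM in F/F Tat and from 12.8 to 19.9 TPM in ΔMye Tat. Whether Ikbkb was deleted in any mast cells of these cultures was not measured.

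Mast cells are tissue-resident granulated cells that live in the peritoneal cavity among other sites, and they need signals through the receptor tyrosine kinase KIT, whose ligand is stem cell factor. Their granules hold histamine and serine and metalloproteases bound to serglycin. The tryptases are encoded by Tpsb2 (mast cell protease 6) and Tpsab1 (mast cell protease 7), a chymase of connective tissue mast cells by Cma1 (mast cell protease 5), and carboxypeptidase A3 by Cpa3. Mouse strains of the C57BL/6 family are known to make no mast cell protease 7, because their Tpsab1 transcript is misspliced.

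In the GENCODE M21 annotation of GRCm38, Tpsab1 (ENSMUSG00000024173) lies on chromosome 17 from 25343245 to 25345562 on the minus strand. Tpsb2 (ENSMUSG00000033825) lies on the plus strand of the same chromosome from 25366305 to 25369098, and the gene starts are 20.7 kb apart. Cma1 is on chromosome 14 (55941451 to 55944675), Cpa3 on chromosome 3 (20215620 to 20242181) and Kit on chromosome 5 (75574916 to 75656722). RefSeq types Tpsab1 of the C57BL/6J assembly as a transcribed pseudogene, while GENCODE types it as protein-coding with a pair of transcripts. One has 5 exons and a coding sequence of 930 bases. The other has 2 exons and a coding sequence of 240 bases, and joins the first exon directly to a long last exon, leaving out exon 2. The deposited values are per gene and do not separate these forms.

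The sequences bear on how far reads of the tryptase genes can be told apart. Exon 2 of the 5-exon Tpsab1 transcript and exon 3 of the 6-exon Tpsb2 transcript are coding exons of equal length (166 bases) at the same place in both genes, and are shown from GENCODE M21 with the 33 differing bases in capitals.
Tpsab1 exon 2, chr17:25345050-25345215, minus strand: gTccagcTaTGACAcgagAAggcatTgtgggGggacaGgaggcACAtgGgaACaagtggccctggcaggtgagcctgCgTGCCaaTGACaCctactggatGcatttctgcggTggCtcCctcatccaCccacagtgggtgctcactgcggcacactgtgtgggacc
Tpsb2 exon 3, chr17:25366760-25366925, plus strand: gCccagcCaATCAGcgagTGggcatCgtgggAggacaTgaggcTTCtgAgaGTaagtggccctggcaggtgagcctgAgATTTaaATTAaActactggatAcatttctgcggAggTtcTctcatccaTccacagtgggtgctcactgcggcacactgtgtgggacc
The exons were 80.1% identical, and the longest stretch without a difference (38 bases) was at their 3′ ends. Over all GENCODE transcripts, 9 of the 2149 31-base sequences of Tpsab1 (0.419%) also occurred in Tpsb2 and none in any other gene. Cpa3 and Kit shared none with another gene, and Cma1 shared 10.6% with Gm48934, so a part of its reads may be assigned either way.

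Tpsab1 was low in ΔMye Tat and high in both F/F groups. Its level was 21.6 to 28.5 TPM (median 23.5) in F/F PBS and 27.2 to 37.3 TPM (median 28.3) in F/F Tat. In ΔMye Tat it was 2.61, 2.69, 2.98, 2.93 and 2.17 TPM. The highest ΔMye Tat library lay far under the lowest F/F library, while the F/F groups overlapped. The mean was 24.6 ± 2.94 TPM (SD, n = 6) with PBS and 30.7 ± 4.46 TPM (n = 6) with Tat in F/F cells, and 2.68 ± 0.320 TPM (n = 5) in ΔMye Tat. The ΔMye Tat mean was thus 8.72% of the F/F Tat mean and 10.9% of the F/F PBS mean.

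**Figure D1:**
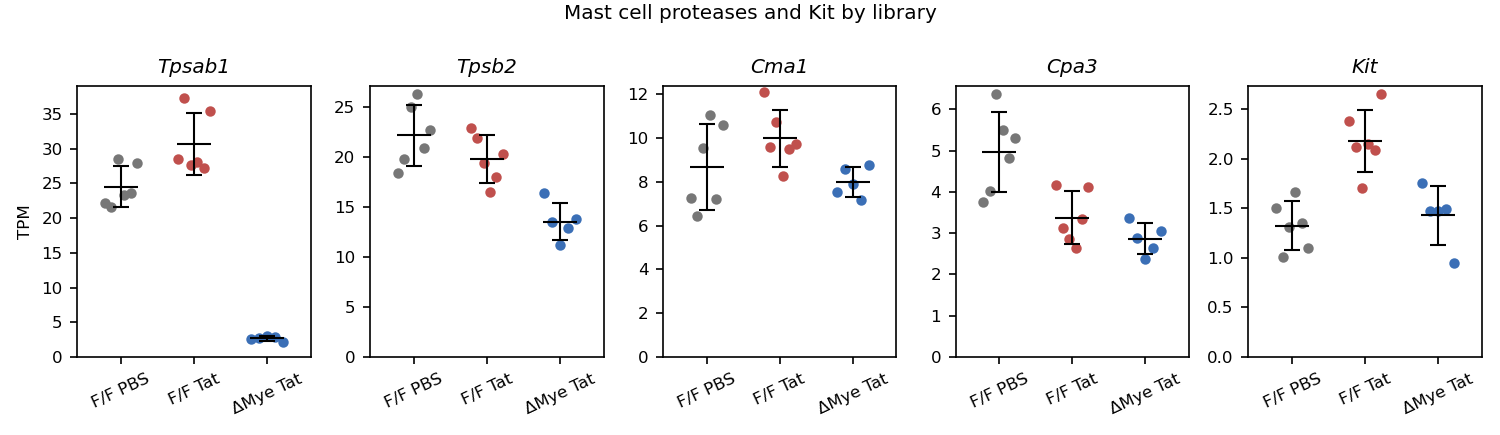
Level of each gene in TPM (y axes from 0, separate scales) in the 6 F/F PBS, 6 F/F Tat and 5 ΔMye Tat libraries. Points are libraries, and bars are the mean and SD. Tpsab1 is at 2.17 to 2.98 TPM in ΔMye Tat and at 21.6 TPM or more in every F/F library, whereas the other proteases differ far less.

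Tpsb2, the other tryptase gene, was lower in ΔMye Tat by a much smaller amount. It was 18.4 to 26.4 TPM (median 21.8) in F/F PBS, 16.5 to 22.98 TPM (median 19.8) in F/F Tat, and 16.4, 13.5, 11.2, 12.9 and 13.9 TPM in ΔMye Tat. In the deposited TPM, every ΔMye Tat library was below every F/F library, but the highest ΔMye Tat library and the lowest F/F Tat library nearly touched. The mean of 13.6 ± 1.88 TPM in ΔMye Tat was 68.3% of that in F/F Tat (19.9 ± 2.41 TPM) and 61.1% of that in F/F PBS (22.2 ± 3.07 TPM).

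Cma1, the chymase gene, overlapped between all groups. It was 6.45 to 11.03 TPM (median 8.40) in F/F PBS, 8.26 to 12.1 TPM (median 9.64) in F/F Tat, and 7.51, 8.57, 7.89, 7.17 and 8.78 TPM in ΔMye Tat. The order of the means was F/F Tat (9.97 ± 1.30 TPM), F/F PBS (8.68 ± 1.96 TPM) and ΔMye Tat (7.98 ± 0.683 TPM), and no neighbours in it were separated by more than their spread.

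Cpa3, the carboxypeptidase gene, was highest in F/F PBS. It was 3.77 to 6.37 TPM (median 5.06) in F/F PBS, 2.63 to 4.16 TPM (median 3.24) in F/F Tat, and 3.36, 2.89, 2.38, 2.65 and 3.05 TPM in ΔMye Tat. The Tat groups overlapped in most of their range, and the F/F groups in a small part of it. In the deposited TPM, ΔMye Tat lay wholly below F/F PBS, at 57.8% of its mean.

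Kit, which encodes the receptor, was highest in F/F Tat. It was 1.01 to 1.67 TPM (median 1.33) in F/F PBS, 1.70 to 2.65 TPM (median 2.13) in F/F Tat, and 1.75, 1.47, 1.48, 1.49 and 0.946 TPM in ΔMye Tat. The F/F groups did not overlap, though the highest PBS and the lowest Tat library nearly touched. ΔMye Tat overlapped F/F PBS in most of its range and F/F Tat through library 19 alone. Kit was 65.6% of the F/F Tat mean in ΔMye Tat.

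With Tat in F/F cells, 1 of the 5 genes was higher without overlap and 0 were lower, where 15.3% of the 10451 tested genes were higher and 62.4% lower in this way. The log2 differences, from a limma fit on log2(TPM + 0.1) over all libraries, were 0.69 for Kit (standard error 0.15), 0.32 for Tpsab1 (0.10), 0.22 for Cma1 (0.12), -0.16 for Tpsb2 (0.10) and -0.54 for Cpa3 (0.14). The median log2 difference over all tested genes was -0.65, so most genes had a lower TPM with Tat. After median-ratio scaling, in which the typical gene is made equal across libraries, the median was -0.01 and the 5 values were 1.28, 0.95, 0.84, 0.47 and 0.08 in the same order. The signs of Tpsb2 and Cpa3 therefore depended on the scaling.

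In ΔMye Tat against F/F Tat, 2 of the 5 genes (Tpsab1 and Tpsb2) were lower without overlap and 0 were higher, beside 8.01% of tested genes lower and 28.6% higher. The log2 difference was -3.47 for Tpsab1 (standard error 0.10), -0.59 for Kit (0.16), -0.55 for Tpsb2 (0.11), -0.31 for Cma1 (0.13) and -0.22 for Cpa3 (0.15), against a median of 0.22 over all tested genes. With median-ratio scaling the values were -3.68, -0.80, -0.76, -0.52 and -0.42. All 5 were below the median gene on either scale. In a bulk culture, fewer mast cells and less of a transcript in each mast cell cannot be told apart. Against F/F PBS, a comparison that was not tested, Tpsab1, Tpsb2 and Cpa3 were lower without overlap in ΔMye Tat and 0 genes were higher, where 52.8% of tested genes were lower and 14.8% higher. Overlap was read on TPM without scaling. Median-ratio scaling divides TPM by 1.25 to 1.34 in F/F PBS libraries and by 0.895 to 1.01 in ΔMye Tat, which narrows these gaps. After this division Tpsab1 still lay below F/F PBS without overlap, but Tpsb2 and Cpa3 overlapped. For both, F/F PBS library 1 (18.4 and 3.77 TPM, divided by 1.26) falls below ΔMye Tat library 19. The latter was at 16.4 and 3.36 TPM, divided by 1.01. The share of all tested genes without overlap after scaling was not determined.

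Only 4 of the 10451 tested genes had a lower log2 difference between the genotypes under Tat than Tpsab1. They were Hmga1b (-9.41), Il17f (-5.83), Il17a (-5.52) and Il22 (-3.82), named here after their values were seen. The 3 cytokine genes averaged at most 0.0492 TPM in F/F PBS and 9.62, 20.8 and 17.1 TPM in F/F Tat. Hmga1b, which is known as a copy of Hmga1 (the sharing of their reads was not measured), averaged 218 TPM with PBS and 196 TPM with Tat in F/F cells but 0.289 TPM in ΔMye Tat, so like Tpsab1 it was high without Tat and low in the other genotype. Whether the lines differ in their Tpsab1 allele or at other loci was not tested, and such a difference cannot be told apart here from the IKKβ deletion.

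The ratio of Tpsab1 to Tpsb2 TPM was 0.885 to 1.23 with PBS and 1.24 to 1.75 with Tat in F/F cells, and 0.157 to 0.267 in ΔMye Tat. No groups overlapped, though the highest PBS library (1.233) and the lowest F/F Tat library (1.244) nearly touched. How often ratios of other genes separate the groups was not determined. The mean ratio was 1.11 ± 0.124, 1.55 ± 0.198 and 0.202 ± 0.0464. Relative to Cpa3, Tpsab1 was 4.24 to 5.91 with PBS and 6.88 to 11.9 with Tat in F/F cells, and 0.712 to 1.25 in ΔMye Tat.

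The ratio of Cma1 to Tpsb2 was 0.325 to 0.467 with PBS and 0.436 to 0.553 with Tat in F/F cells, and 0.459 to 0.707 in ΔMye Tat. The ratio of Cpa3 to Tpsb2 was 0.202 to 0.255, 0.143 to 0.203 and 0.205 to 0.221. Here F/F Tat was lowest on average, and ΔMye Tat lay within the range of F/F PBS. Kit to Cpa3 was 0.206 to 0.399 with PBS and 0.572 to 0.815 with Tat in F/F cells, and 0.310 to 0.620 in ΔMye Tat. Cma1 to Cpa3 was 1.498 to 2.01, 2.36 to 3.77 and 2.24 to 3.31. The F/F groups did not overlap in the ratios of Tpsab1, Kit and Cma1 to Cpa3 either. Between the genotypes under Tat the ratios with Tpsab1 were therefore furthest apart, whereas with Tat in F/F cells the mean of Kit to Cpa3 (0.274 and 0.655) differed by a larger factor than that of Tpsab1 to Tpsb2. Tpsab1 had the highest TPM of the 5 genes in 5 of 6 F/F PBS libraries and in 6 of 6 F/F Tat libraries. In ΔMye Tat, Tpsb2 was highest and Cma1 next in all 5 libraries, Tpsab1 was above Cpa3 in 2 and below it in 3, and Kit was lowest in every library of the series. These ratios were added after the levels were seen.

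**Figure D2:**
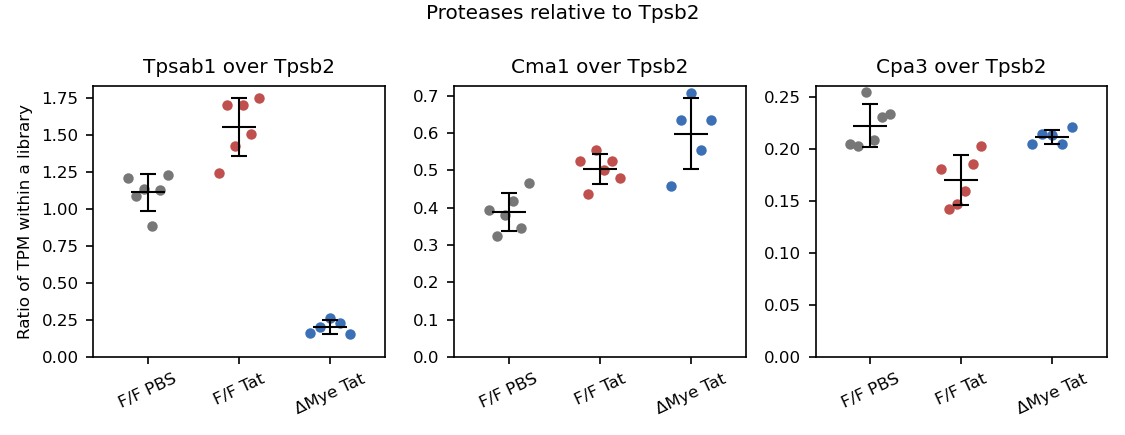
Ratio of the TPM of Tpsab1, Cma1 and Cpa3 to that of Tpsb2 in the same library (y axes from 0), by group. Points are libraries, and bars are the mean and SD. Tpsab1 over Tpsb2 is 0.157 to 0.267 in ΔMye Tat and at least 0.885 in the F/F libraries, while Cpa3 over Tpsb2 in ΔMye Tat stays within the range of F/F PBS.

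The low level of Tpsab1 in ΔMye Tat was set beside its neighbours on the chromosome. Of the other genes whose start lies within 500 kb of that of Tpsab1 on chromosome 17, 27 were tested, a set chosen after the values were seen. Between ΔMye Tat and F/F Tat 13 were higher and 0 lower at an adjusted p under 0.01 (limma, Benjamini-Hochberg over all tested genes), and 1 was lower at an unadjusted p under 0.05. Over all tested genes 38.8% were higher and 8.87% lower. Their log2 differences ran from -0.73 (Msln, a mesothelial marker, adjusted p = 0.0267, limma) to 1.54 (Haghl), with a median of 0.26. On the side of Tpsb2 the nearest tested neighbour was Lmf1, a lipase maturation factor gene 234 kb away (log2 difference 0.53, standard error 0.08). Tpsg1, a further tryptase gene of the cluster, reached 0.714 TPM at most and was not tested.

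**Figure D3:**
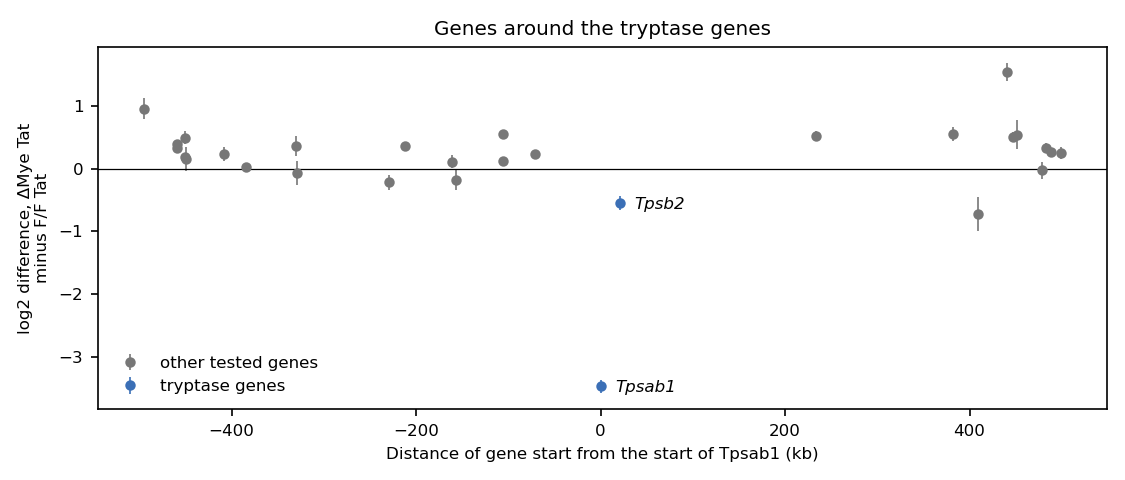
log2 difference of ΔMye Tat from F/F Tat (y axis, on log2(TPM + 0.1), bars are standard errors) of the tested genes within 500 kb of Tpsab1, by the distance of their start from that of Tpsab1 (x axis, kb). Tpsab1 is at -3.47 and Tpsb2, 20.7 kb away, at -0.55, and the 27 other genes lie between -0.73 and 1.54.

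Other genes of mast cells were taken from 5 lists (25 genes). Of these, 12 passed the filter of 1 TPM in at least 5 libraries. With Tat in F/F cells, 3 of the 12 were called higher and 2 lower at an adjusted p under 0.01 with a fold change over 3 (limma), where 5.21% of all tested genes were called higher and 19.4% lower. At an adjusted p under 0.01 alone, 5 were higher and 5 lower, beside 17% and 67.6% of all genes. Hdc and Il33, both called higher, were under 1 TPM in every F/F PBS library and passed the filter only through libraries given Tat. The median log2 difference of the 12 was 0.27. Macrophages are known to express several of these genes too, among them Srgn, Fcer1g, Mitf and Hpgds. Which cells of the cultures held the transcripts of the 12 genes, Hdc among them, was not measured.

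Hdc and Srgn, genes of histamine synthesis and granule storage, rose most with Tat. Hdc, the histidine decarboxylase that makes histamine, was 0.396 to 0.873 TPM in F/F PBS and 92.3 to 102 TPM in F/F Tat (log2 difference 7.21, standard error 0.11, adjusted p = 2.59e-21, limma). It was 53.7 to 59.3 TPM in ΔMye Tat, with a log2 difference from F/F Tat of -0.76 (adjusted p = 2.03e-05, limma). Srgn encodes the serglycin core protein that retains proteases in granules. It averaged 183 TPM with PBS and 1777 TPM with Tat in F/F cells, and 1658 TPM in ΔMye Tat. Its rise with Tat (3.28) was called, and its difference between the Tat groups was -0.10 (adjusted p = 0.00435, limma). Without F/F Tat library 7 or 11 or ΔMye Tat library 21 or 22 the adjusted p of that difference was 0.0111, 0.0102, 0.0171 and 0.0108 (limma).

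Slc18a2, the vesicular monoamine transporter gene, averaged 0.567 TPM with PBS and 0.266 TPM with Tat in F/F cells and 0.357 TPM in ΔMye Tat, and did not pass the filter.

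Of the 7 genes of mediator synthesis and granule storage, 6 were tested, and with Tat 3 were higher and 3 lower at an adjusted p under 0.01 (limma). Hpgds, the hematopoietic prostaglandin D synthase, went from 16.6 TPM to 2.63 TPM (-2.62, adjusted p = 9.04e-16, limma). Ltc4s, the leukotriene C4 synthase, went from 8.93 TPM to 2.86 TPM (-1.63, adjusted p = 1.60e-06, limma), and was 5.15 TPM in ΔMye Tat (0.86 against F/F Tat, adjusted p = 0.00441, limma). The latter call was lost without F/F Tat library 10 or 12 or ΔMye Tat library 22 or 23 (adjusted p = 0.0120, 0.0115, 0.0167 and 0.0104, limma) and with median-ratio scaling (adjusted p = 0.0267, limma). The fall of Ltc4s with Tat was under the fold threshold after scaling (-1.01), with a pseudocount of 0.5 (-1.49) or 1 (-1.36), and without F/F PBS library 2 (-1.56) or 6 (-1.499) or F/F Tat library 10 (-1.53) or 12 (-1.48). Ndst2, which sulfates the heparin of mast cell granules, had a log2 difference of -0.63 with Tat (adjusted p = 1.72e-07, limma) and of 0.0029 after scaling (adjusted p = 0.969). Tph1, which makes serotonin, was 1.47 ± 0.741 TPM with PBS and 2.55 ± 0.305 TPM with Tat in F/F cells (0.85, adjusted p = 0.00234, limma) and 1.52 ± 0.490 TPM in ΔMye Tat (-0.76 against F/F Tat, adjusted p = 0.0122, limma). This last value passed the threshold without F/F PBS library 1 (adjusted p = 0.00240), ΔMye Tat library 20 (0.00806) or ΔMye Tat library 21 (0.00902, limma), and also after scaling (0.00292), with a pseudocount of 1 (0.00896) and in a fit of the Tat groups alone (0.00397).

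Of the receptors, the IgE receptor alpha chain gene Fcer1a, which mast cells need to bind IgE, was 0.485 to 1.10 TPM with PBS and 0.429 to 1.18 TPM with Tat in F/F cells, and 0.215 to 0.910 TPM in ΔMye Tat, with overlap of all groups, and did not pass the filter. Its beta chain gene Ms4a2 was at most 0.467 TPM in any library. The gamma chain gene Fcer1g, which macrophages express for their IgG receptors, averaged 2148 TPM with PBS and 3083 TPM with Tat in F/F cells (0.52, adjusted p = 1.19e-13, limma) and 3251 TPM in ΔMye Tat (0.08 against F/F Tat, -0.14 after scaling, adjusted p = 0.0171 without it, or 0.00795 and 0.00630 without ΔMye Tat library 19 or 22, limma). Il1rl1, the receptor for interleukin 33, averaged 1.08, 1.49 and 1.06 TPM and passed the test in neither comparison (adjusted p = 0.141 and 0.199, limma), but its log2 difference with Tat was 1.01 after scaling (adjusted p = 0.00152, limma). The mast cell receptor genes Mrgprb1 and Mrgprb2 reached 1.21 and 0.582 TPM at most.

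Among the other proteases, the chymase gene Mcpt4 averaged 1.54 ± 0.408 TPM with PBS and 1.66 ± 0.494 TPM with Tat in F/F cells, and 1.27 ± 0.337 TPM in ΔMye Tat, with adjusted p of 0.627 and 0.175 (limma) in the 2 comparisons. After scaling, its log2 difference with Tat was 0.70 (adjusted p = 0.00431, limma). Mcpt1, Mcpt2 and Mcpt9, of mucosal or uterine mast cells, were listed at 0 in every library. Ctsg reached 0.279 TPM at most. The proteases that passed the filter (Tpsab1, Tpsb2, Cma1, Cpa3 and Mcpt4) are known from connective tissue mast cells. All but Mcpt4 were chosen with their levels known, so their presence does not identify a type of mast cell. Mcpt4 was as low as 0.813 TPM in F/F PBS and 0.938 TPM in ΔMye Tat.

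Of the transcription factors, Mitf, which macrophages and mast cells both use, was 24.0 ± 3.24 TPM with PBS and 18.8 ± 1.37 TPM with Tat in F/F cells, and 31.9 ± 2.23 TPM in ΔMye Tat. The Tat groups differed by 0.76 (adjusted p = 1.66e-07, limma). With Tat it was -0.35 (adjusted p = 2.83e-04, limma), but 0.28 after scaling. Gata2, needed for mast cell development, was 0.172 to 0.855 TPM over all libraries and Gata1 0.0402 to 0.787 TPM. Among the factors that sustain mast cells, Kitl, the ligand of KIT, averaged 2.47 TPM with PBS and 1.71 TPM with Tat in F/F cells (-0.50, adjusted p = 0.00414, limma) and 1.81 TPM in ΔMye Tat (0.07 against F/F Tat, -0.13 after scaling, adjusted p = 0.711 without it, limma). Its fall with Tat did not pass the threshold without F/F PBS library 2 or F/F Tat library 8 (adjusted p = 0.0133 and 0.0130, limma) and was 0.10 after scaling. Il33 rose from 0.210 TPM to 1.72 TPM with Tat (2.57, adjusted p = 5.52e-10, limma; 1.16, under the fold threshold, with a pseudocount of 1) and was 0.923 TPM in ΔMye Tat (-0.85, adjusted p = 0.00260, limma). Il3 was listed at 0 in every library.

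In ΔMye Tat against F/F Tat, 0 of the 12 genes were called with the fold threshold (limma), where 0.44% of all genes were called higher and 0.316% lower. At an adjusted p under 0.01 alone, 2 were higher (Ltc4s and Mitf) and 3 lower (Hdc, Srgn and Il33), beside 38.8% and 8.87% of all genes, and at an unadjusted p under 0.05 3 were higher and 4 lower. The median log2 difference was -0.10. After median-ratio scaling Tph1, Ndst2, Hdc, Srgn and Il33 were lower and Mitf higher at an adjusted p under 0.01.

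**Figure D4:**
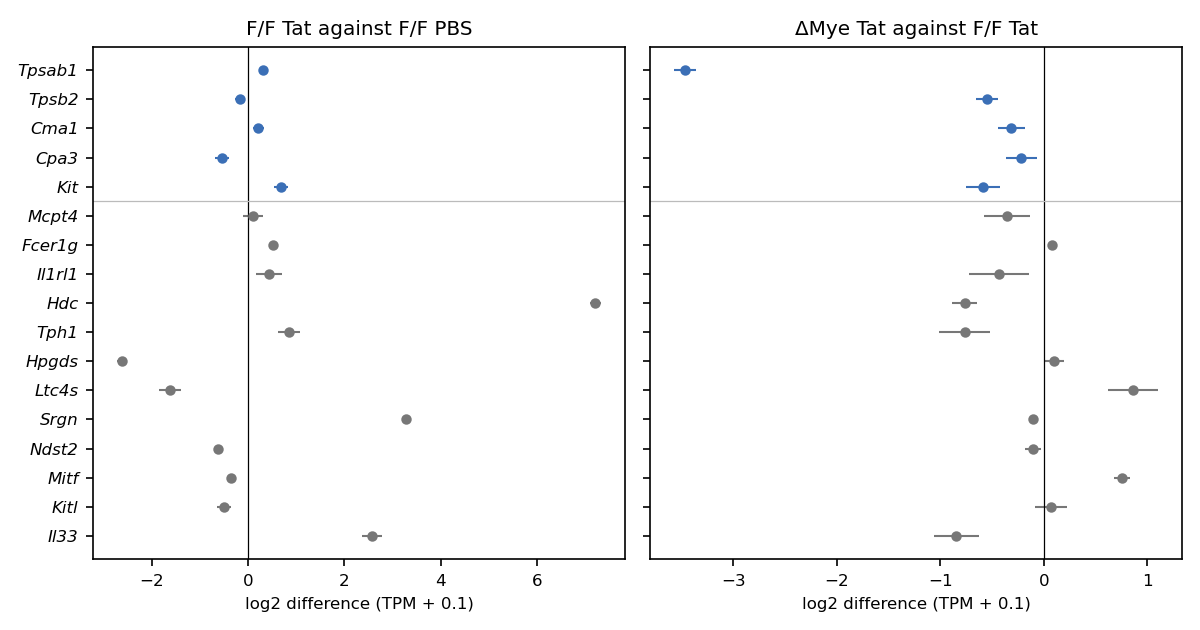
log2 difference (x axes, on log2(TPM + 0.1), bars are standard errors) of the 5 genes (blue, above the line) and the 12 tested genes of the mast cell lists (grey) for Tat against PBS in F/F cells (left) and ΔMye Tat against F/F Tat (right). Hdc is at 7.21 with Tat, where the 5 genes lie between -0.54 and 0.69, and Tpsab1 is at -3.47 in ΔMye Tat, where the other 16 genes lie between -0.85 and 0.86.

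The cultures were macrophages by their markers, with a mast cell signal that was small beside them. The 6 macrophage markers summed to 3617 to 3988 TPM with PBS and 2578 to 2827 TPM with Tat in F/F cells, and 2706 to 2852 TPM in ΔMye Tat. The 4 proteases summed to 51.7 to 69.4 TPM, 55.5 to 71.9 TPM and 24.4 to 29.9 TPM. Without Tpsab1 the sum of Tpsb2, Cma1 and Cpa3 was 29.4 to 42.9 TPM with PBS and 27.4 to 39.2 TPM with Tat in F/F cells, and 21.4 to 27.3 TPM in ΔMye Tat. The last of these lay below both F/F groups in the deposited TPM, nearly touching F/F Tat. All 11 mast cell markers (the 5 genes, Mcpt4, Fcer1a, Ms4a2, Hdc, Gata2 and Mrgprb2) were above 0 in some library. Of the 7 that passed the filter, 5 were the genes chosen with their levels known, and Hdc passed only through libraries given Tat. Mcpt4 also passed, while Fcer1a, Ms4a2, Gata2 and Mrgprb2 did not. Over the whole series 10451 of 21683 genes passed, so the count of markers was not a test for mast cells.

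Markers of other cells that such a lavage holds also moved with the groups, and their part in the levels of the proteases was not tested. Of the 3 basophil markers Mcpt8 was at 0 in every library, and the list summed to at most 0.761 TPM. The 7 eosinophil markers, of which Ear1 was at 0 in every library and 1 passed the filter, summed to 1.43 to 2.64 TPM with PBS and 1.53 to 2.63 TPM with Tat in F/F cells, and 1.04 to 1.64 TPM in ΔMye Tat. The 4 B cell markers summed to 12.1 to 25.4 TPM, 10.9 to 14.5 TPM and 8.20 to 12.6 TPM, and the 4 T cell markers to 4.68 to 9.63 TPM, 2.67 to 3.99 TPM and 6.07 to 8.19 TPM. The 3 NK cell markers were at 3.94 to 7.87 TPM, 3.90 to 5.93 TPM and 4.64 to 7.28 TPM, the 4 mesothelial markers at 2.04 to 3.01 TPM, 1.54 to 2.54 TPM and 0.627 to 1.71 TPM, and the 6 neutrophil markers at 54.7 to 67.8 TPM, 64.1 to 76.4 TPM and 86.6 to 102.8 TPM. The neutrophil sum was mostly S100a8 (means of 53.8, 68.6 and 91.4 TPM), while Retnlg averaged 5.07, 0.671 and 0.298 TPM and S100a9 1.15, 0.842 and 0.716 TPM. The summed levels of the B cell, mesothelial, eosinophil and basophil markers were lowest on average in ΔMye Tat, as was that of the 3 proteases. Those of the NK cell and neutrophil markers were highest on average in ΔMye Tat, and those of the T cell and macrophage markers were lowest in F/F Tat. The NK cell sum was mostly Gzma, the only one of its markers to pass the filter, while Klrb1c was highest in F/F PBS. The macrophage sum was mostly Cd68 (means of 2596, 1744 and 1886 TPM). Adgre1, Csf1r and Itgam were also lowest in F/F Tat. Fcgr1 (113, 300 and 164 TPM) was highest there, and Mertk (15.4, 20.1 and 24.3 TPM) was lowest in F/F PBS.

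Within a group the proteases mostly had positive correlations, but no pair passed the test. In F/F PBS, 9 of the 10 pairs of the 5 genes had a positive correlation of log2(TPM + 0.1) across libraries, and in F/F Tat 8 of 10. The strongest pair was Tpsb2 and Cpa3 in F/F PBS (Pearson's r = 0.915, exact permutation p = 0.0139, adjusted p = 0.278; Spearman's rho = 0.943, exact permutation p = 0.0167, adjusted p = 0.333, over 20 pairs). Without the 2 libraries farthest from the median of Tpsb2, r was 0.984. In F/F Tat the same pair had r = 0.666 (exact permutation p = 0.158) and rho = 0.714 (exact permutation p = 0.136), and r was 0.0402 without the 2 farthest libraries. None of the 20 pairs passed an adjusted p of 0.05. TPM of a library share its total, and no correlation was computed over the 5 ΔMye Tat libraries.

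The genes whose variation was most like that of the summed proteases, after subtraction of each group's mean over 17 libraries, were Klra8 (r = 0.824), Napsa (0.822), Rpl23 (0.820), Penk (0.817), Cd3d (0.789), Mrpl52 (0.782), H2-Aa (0.780), Cytip (0.776), Ptprcap (0.766) and Ripor2 (0.763), out of 10770 candidates. For Kit they were Pigz (0.812), Uckl1 (0.785), Tapbp (0.778) and Pkm (0.771). None of these genes was on the mast cell lists. They were picked as the highest of many candidates, and their correlations were not tested. Of those lists, Srgn (r = 0.486) and Il1rl1 (0.462) ranked highest for the summed proteases, in places 341 and 409, and Fcer1a (-0.13) and Mcpt4 (-0.04) were near 0 or below. Kitl (-0.545, place 10571), Tph1 (-0.415) and Mitf (-0.345) ranked lowest.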

How the data were processed

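Per the labels and methods, RNA-Seq was done on 17 libraries in 3 groups (6, 6 and 5), grouped here by sample title. The authors ran Salmon with the Ensembl annotation of GRCm38 (mm10 in the submitters' processing notes) and deposited TPM by gene symbol. The methods describe TMM scaling of read counts for the study's own tests, and do not say that it was applied to the TPM. TPM keep no read number, so depth and counting error are unknown. The TPM of a library summed to 889318 to 903576.

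The 10451 genes that reached 1 TPM in 5 or more libraries entered a limma 3.58.1 model (R 4.3.3) of log2(TPM + 0.1). It held all 3 groups and left 14 residual degrees of freedom, with an eBayes trend. Adjusted p are Benjamini-Hochberg over all tested genes. A log2 difference understates the change of low genes. The script was tested on simulated data. The genes described, the lists and the tests were chosen with earlier results of these data known. Named genes were the 5 genes, every gene of the mast cell lists, Ikbkb, and the 10 and 5 genes of highest group-centred correlation with the summed proteases and with Kit (mean of at least 0.5 TPM). One gene that this rule names is not reported here. Lists cover proteases, receptors, mediator and granule genes, transcription factors, growth factors, and markers of mast cells, basophils, eosinophils, neutrophils, B, T and NK cells, mesothelial cells and macrophages. The log2 differences of the 5 genes and of the list genes, and the counts of list genes called, were recomputed where possible with another pseudocount (0.5 or 1), with the filter removed or raised to 5 TPM, after median-ratio scaling, without the fold threshold, with the compared groups alone, and with every library left out in turn. The ratios between genes and the neighbours of Tpsab1 were added after the data were seen. Other steps used scipy 1.17.1, biopython 1.88 and matplotlib 3.10.9 under Python 3.11.15.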

Additional observations from a re-analysis of the deposited data

Results flagged for a closer look

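In 51 groups of libraries (17 genes in 3 groups), 4 held a library far from the others of its group by Dixon's criterion, which chance gives in about 1 of 20 groups. None concerned Tpsab1, Tpsb2, Cma1, Cpa3 or Kit. Mcpt4 was 2.57 TPM in F/F Tat library 9, Tph1 was 2.92 TPM in F/F PBS library 1, Mitf was 30.1 TPM in F/F PBS library 2 and Kitl was 1.26 TPM in F/F Tat library 8.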

How the results depend on the processing

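No paired analysis was made. The replicate numbers run on from group to group, and the labels do not say whether F/F cells given PBS and Tat came from the same mice. With median-ratio scaling the log2 differences with Tat were 0.95 (Tpsab1), 0.47 (Tpsb2), 0.84 (Cma1), 0.075 (Cpa3) and 1.28 (Kit), and those in ΔMye Tat against F/F Tat -3.68 (Tpsab1), -0.76 (Tpsb2) and -0.52 (Cma1). With a pseudocount of 1, Kit was 0.45 with Tat and Tpsab1 -3.10 in ΔMye Tat. With each library left out in turn, Tpsab1 was -3.51 to -3.40 and Tpsb2 -0.62 to -0.48 in ΔMye Tat. Of the mast cell lists, 5 genes were called with Tat, 3 with a pseudocount of 1 and 10 without the fold threshold, or 4 to 5 with a library left out. In ΔMye Tat 0 were called, and 5 without the fold threshold. Scaling turned the sign of Ndst2 (0.0029), Mitf (0.28) and Kitl (0.10) with Tat and of Fcer1g (-0.14), Hpgds (-0.10) and Kitl (-0.13) in ΔMye Tat. The cause was not tested. Leaving out a library gave -0.050 to 0.19 for Mcpt4 with Tat and -0.010 to 0.16 for Kitl in ΔMye Tat. Depth is unknown, so levels under 1 TPM carry an error that could not be stated.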
